A study of Mus musculus with 10 samples.

Results

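10 genes of cholesterol handling were followed across cells sorted from the ischemic mouse brain. They were taken by symbol as genes of the liver X receptors (LXR), the peroxisome proliferator-activated receptors (PPAR) and cholesterol efflux: Nr1h3, Pparg, Abca1, Abcg1, Mylip, Lipa, Npc1, Npc2, Soat1 and Ch25h. They are 10 of the 28585 genes in the deposited count table, and all 10 were among the 15151 genes kept by the filter on low counts.

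RNA of fluorescent cells from the ischemic hemisphere was sequenced in 10 libraries, and the cells were sorted by their reporter without antibody staining. The transgenic CD11c group (4 libraries, replicates 23, 24, 26 and 27) held CD11c-eYFP+ cells of female Tg(Itgax-Venus)1Mnz mice aged 13 to 14 weeks. The parabiotic CD11c group (3 libraries, replicates 3, 11 and 15) held CD11c-eYFP+ cells of C57BL/6 mice aged 15 to 16 weeks that shared a circulation, by parabiosis, with a Tg(Itgax-Venus)1Mnz partner. The labels call replicates 3 and 11 female. Replicate 15 carries no sex or cell type label, gives its strain as C57BL/6 and its genotype as Tg(Itgax-Venus)1Mnz, and was placed by its title. The microglia group (3 libraries, replicates 39, 40 and 41) held tdTomato-labelled cells of female CX3CR1CreERT2:Rosa26-tdT mice aged 13 to 14 weeks. The yellow reporter is driven by regulatory sequence of Itgax, the CD11c gene, so in transgenic mice any cell that uses it, of the brain or of the blood, can enter the sort, whereas in a C57BL/6 partner reporter cells come from the shared circulation. The red reporter marks cells in which Cre acted under the Cx3cr1 gene. All groups shared the ischemic injury. The parabiotic mice differed from both others in surgery and age as well as in the origin of the sorted cells, and these cannot be told apart here.

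Macrophages and microglia take up cholesterol with lipoproteins, myelin and dying cells, and free it from its esters in the lysosome. Free sterol is then either esterified for storage in droplets or exported to apolipoproteins, and oxysterols made from it activate LXR, which turns on the export genes. PPAR gamma, another lipid-sensing nuclear receptor, turns on genes of fatty acid uptake and storage and can raise the level of LXR alpha. In the injured brain this system handles the lipid of myelin debris.

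Promoters are shown for 3 members: Abca1, a textbook LXR target, and the neighbouring genes Ch25h and Lipa, which moved in opposite directions in parabiotic cells. Each sequence holds the 250 bases before the start of the gene in RefSeq on GRCm38.p6, written 5′ to 3′ on the gene's strand. All 3 genes lie on the minus strand, at chr4:53159896-53160145, chr19:34475149-34475398 and chr19:34527475-34527724. Capitals mark motif matches.
Abca1: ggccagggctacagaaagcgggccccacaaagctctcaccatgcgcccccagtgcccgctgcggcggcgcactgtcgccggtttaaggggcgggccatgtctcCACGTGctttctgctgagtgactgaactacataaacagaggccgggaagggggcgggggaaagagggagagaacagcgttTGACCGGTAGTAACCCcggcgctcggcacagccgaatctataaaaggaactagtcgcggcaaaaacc
Ch25h: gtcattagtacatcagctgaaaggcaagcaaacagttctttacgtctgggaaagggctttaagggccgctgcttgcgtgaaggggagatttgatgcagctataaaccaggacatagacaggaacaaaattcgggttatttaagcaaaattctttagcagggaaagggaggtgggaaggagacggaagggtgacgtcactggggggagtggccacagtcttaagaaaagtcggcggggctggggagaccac
Lipa: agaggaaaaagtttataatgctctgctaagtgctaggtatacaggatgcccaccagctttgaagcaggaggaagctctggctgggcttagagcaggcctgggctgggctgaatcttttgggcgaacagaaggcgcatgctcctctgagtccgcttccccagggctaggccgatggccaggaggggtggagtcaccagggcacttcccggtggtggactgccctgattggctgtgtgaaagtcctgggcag
In the Abca1 window the capitals mark CACGTG, the E-box, 147 bases before the start, and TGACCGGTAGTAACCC, 67 bases before it. The second is a match on the opposite strand, with 3 mismatches, to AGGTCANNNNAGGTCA, the direct repeat that LXR dimers bind. The search covered both strands and also AGGTCANAGGTCA (PPAR, up to 3 mismatches), GAAANNGAAA (interferon response) and TCACNCCAC (sterol response), and the matches in the windows of these 3 genes were the 2 in Abca1. Of 32851 RefSeq promoter windows of the same length, 18.5% held the LXR repeat with up to 3 mismatches and 6.02% held the E-box. The PPAR, interferon and sterol motifs stood in 21.3%, 2.98% and 1.05% of them. The limit of 3 mismatches was chosen after a limit of 2 gave no match of either repeat in a member's window. A match describes letters and does not show binding.

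Libraries held 31534625 to 41730688 counts. Levels are given in CPM, counts scaled to library size with TMM factors. Log2 fold changes come from edgeR's quasi-likelihood fit of all 10 libraries with Benjamini-Hochberg adjusted p over all genes tested. Their standard error (± SE) is not an output of that fit. It was derived as the absolute log2 fold change divided by the square root of the F statistic. A gene is called where the adjusted p is under 0.05. The summed level of 10 microglia markers ranged over 6340 to 18310 CPM in transgenic libraries, 2063 to 3606 in parabiotic libraries and 20920 to 23290 in microglia libraries. The sum of 10 dendritic cell markers ranged over 3107 to 12460, 19560 to 24650 and 184 to 277.6 CPM in the same groups. Most of the dendritic cell sum came from Cd74 and H2-Aa, genes of antigen presentation that other activated myeloid cells share. Of its narrower markers, Flt3 stood at 17.9 to 89.4 CPM in transgenic libraries, 127 to 160.5 CPM in parabiotic libraries and 0.538 to 1.72 CPM in microglia libraries. Zbtb46, a lineage factor of dendritic cells, stood at 23.2 and 26.6 CPM in transgenic replicates 23 and 24 and at 5.36 and 6.70 CPM in replicates 26 and 27, against 23.7 to 36.6 CPM in parabiotic libraries and 5.64 to 8.81 CPM in microglia libraries. Transgenic replicates 26 and 27 thus overlapped microglia in Zbtb46. Neutrophil markers summed to 851 CPM in parabiotic replicate 11 and to between 6.35 and 109 CPM in the other 2 parabiotic libraries. The sum of 8 monocyte markers ranged over 709 to 2587, 1571 to 1993 and 837 to 1220 CPM in transgenic, parabiotic and microglia libraries. Much of that sum is Fn1, which overlapped between the groups, while Ccr2, the chemokine receptor gene of blood monocytes, stood at 131 to 477, 620 to 789 and 6.39 to 7.22 CPM. Ly6c2, Plac8, Chil3 and F10 were likewise higher in every CD11c library than in every microglia library. Border-associated macrophage markers differed among themselves. Their sum ranged over 487 to 1345, 976 to 1107 and 273 to 449 CPM through F13a1 and Ms4a7, whereas Mrc1 stood at 19.6 to 99.3, 51.7 to 66.1 and 81.6 to 153 CPM and Cd163 at 0.936 to 26.3, 2.31 to 2.83 and 17.6 to 49.4 CPM, both lower in every parabiotic library than in every microglia library.

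Oligodendrocyte markers summed to 154 to 236, 231 to 280.5 and 212 to 235 CPM in transgenic, parabiotic and microglia libraries. Sums of T cell, NK cell and neuron markers did not exceed 3.59, 2.36 and 4.42 CPM in any library. Transgenic replicates 26 and 27 have library numbers apart from the other 8 libraries, and Spp1 (osteopontin) stood at 32055 and 36158 CPM in them, against 1722 to 8047 CPM elsewhere.

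Against microglia, both kinds of CD11c cells held more RNA of the receptors Nr1h3 and Pparg, of the lysosomal genes Lipa and Npc1 and of the esterifying enzyme Soat1. The export gene Abca1 and the LDL receptor ligase gene Mylip were lower in parabiotic cells than in microglia, and Ch25h, the gene of an oxysterol-producing enzyme, fell to about 1 CPM in parabiotic cells alone. Abcg1 and Npc2 passed the test in no comparison. In transgenic cells over microglia, 5 members were called higher, where 8.88% of all genes tested were, and 0 were called lower, where 4.79% were (13.7% in either direction). At an unadjusted p under 0.05 edgeR had 2 members lower there, Abca1 and Mylip, which DESeq2 called (2 members) and limma-voom did not (0). Parabiotic cells over microglia had 5 members called higher and 3 lower, against 17.4% and 17.9% of all genes and 35.3% in either direction. In transgenic over parabiotic cells, 1 member was called higher and 1 lower, against 7.63% and 2.42% of all genes (10.1% in either direction). The median log2 difference over the 10 members was 0.30, 0.43 and -0.19 in these comparisons, beside 0.02, -0.02 and 0.04 over all genes. Both comparisons with microglia use the same 3 microglia libraries, so their shared calls are not independent. In bulk RNA of sorted cells, fewer cells of a type and less RNA per cell cannot be told apart, and the part of the cell mixture in these differences was not tested.

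**Figure D1:**
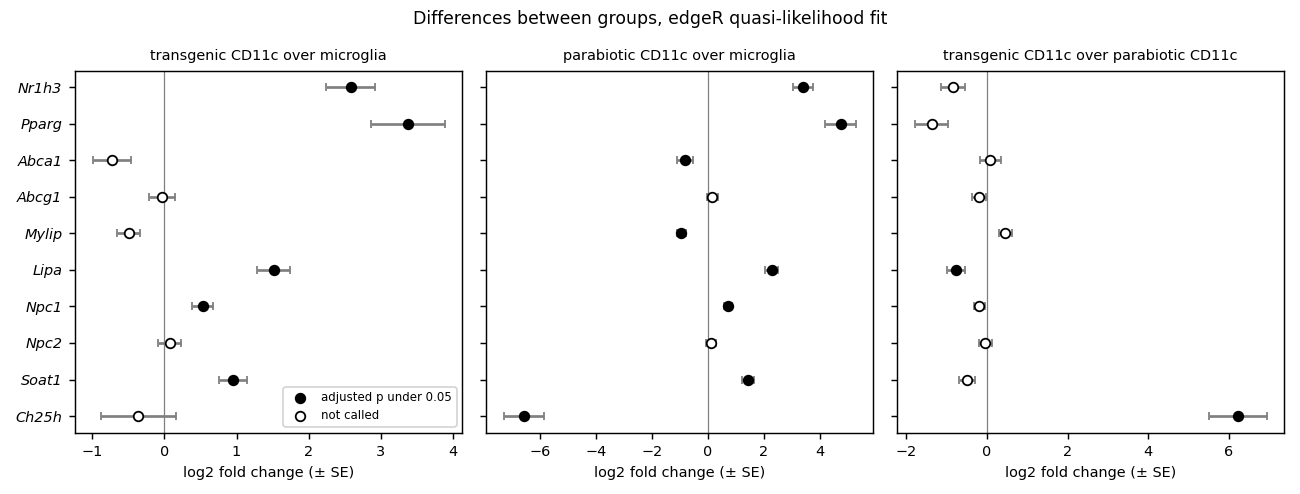
Log2 fold change of each member with its SE, from the edgeR fit, for transgenic CD11c over microglia, parabiotic CD11c over microglia and transgenic CD11c over parabiotic CD11c, with filled points at adjusted p under 0.05. Ch25h stands at -0.36 in the first panel, -6.58 in the second and 6.22 in the third, while Nr1h3 and Pparg lie right of 0 in both comparisons with microglia.

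Libraries of the groups did not overlap for 7 members in transgenic cells and microglia, 5 of them higher in transgenic cells and 2 lower, where 15.6% and 14.7% of all genes separated in those directions. Parabiotic cells and microglia separated for 8 members, 5 higher and 3 lower in parabiotic cells, against 30.5% and 29.7% of all genes. Between transgenic and parabiotic cells 6 members separated, 2 higher and 4 lower in transgenic cells, against 12.4% and 10.3% of all genes.

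**Figure D2:**
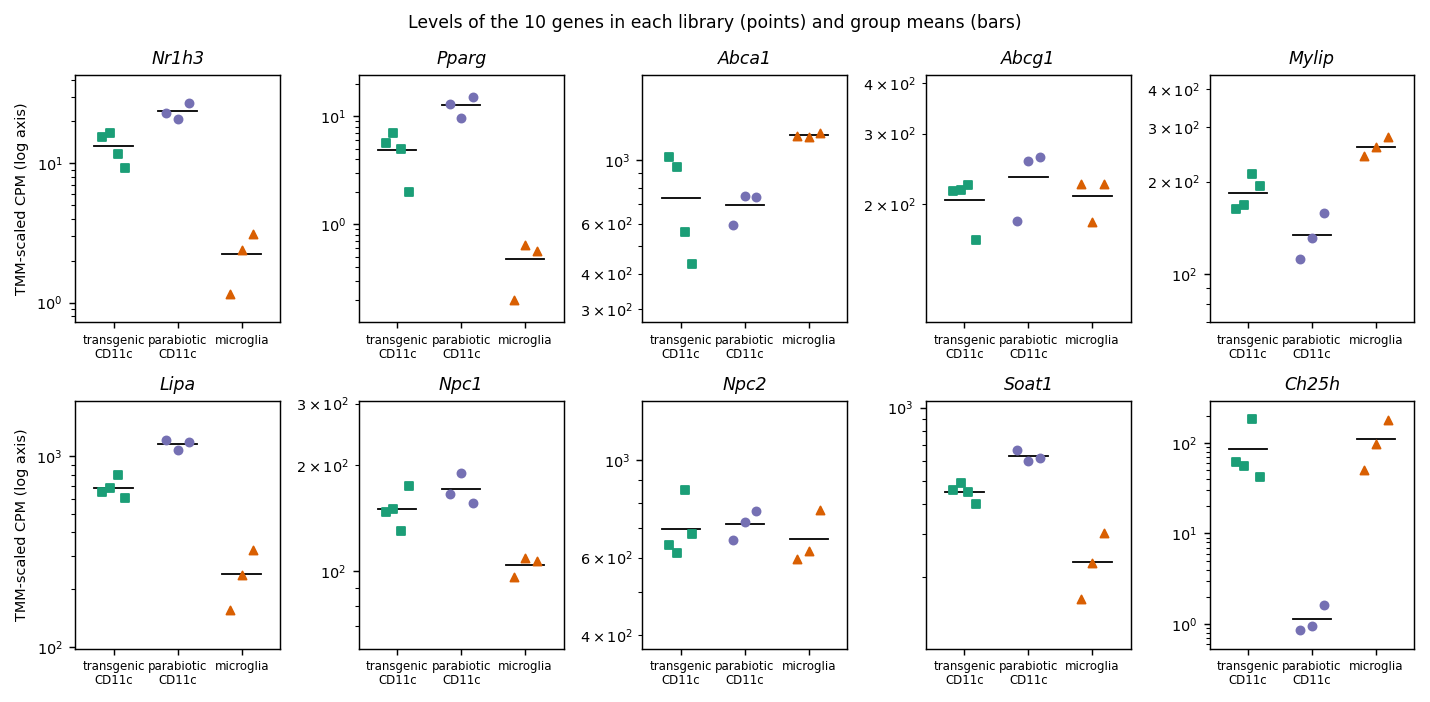
TMM-scaled CPM of the 10 members in every library, on a log axis whose range differs by panel, with transgenic CD11c, parabiotic CD11c and microglia libraries from left to right and bars at group means. Ch25h stands between 0.862 and 1.61 CPM in parabiotic libraries and between 41.9 and 181 CPM in all others, and the 3 microglia libraries lie below every CD11c library for Nr1h3, Pparg, Lipa, Npc1 and Soat1.

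Nr1h3 encodes LXR alpha, the LXR of macrophages and liver (ENSMUSG00000002108, chr2:91184061-91202834, minus strand, GRCm38). Its level was 15.6, 16.5, 11.7 and 9.21 CPM in transgenic replicates 23, 24, 26 and 27, 22.9, 20.7 and 27.1 CPM in parabiotic replicates 3, 11 and 15, and 1.16, 2.39 and 3.10 CPM in microglia replicates 39, 40 and 41. The groups do not overlap, and parabiotic libraries were highest. The log2 difference was 2.58 ± 0.34 in transgenic cells over microglia (adjusted p = 0.000901) and 3.41 ± 0.36 in parabiotic cells over microglia (adjusted p = 4.69e-05). Transgenic cells stood at -0.83 ± 0.30 relative to parabiotic cells, which edgeR did not call (adjusted p = 0.115) and which DESeq2 (adjusted p = 0.0474) and limma-voom (adjusted p = 0.0480) called. Nr1h3 shares 34 exon bases with the transcript Gm13783 on its own strand.

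Pparg encodes PPAR gamma (ENSMUSG00000000440, chr6:115360951-115490399, plus strand). It was measured at 5.66, 6.98, 4.93 and 1.97 CPM in transgenic libraries, 13.0, 9.64 and 15.1 CPM in parabiotic libraries and 0.198, 0.645 and 0.570 CPM in microglia libraries, where 7, 21 and 18 counts lie behind the values. Every CD11c library lay above every microglia library, and transgenic replicate 27 was the lowest of its group. The log2 difference from microglia was 3.37 ± 0.51 in transgenic cells (adjusted p = 0.00188) and 4.74 ± 0.55 in parabiotic cells (adjusted p = 7.62e-05). Between transgenic and parabiotic cells it was -1.37 ± 0.42, which edgeR did not call (adjusted p = 0.0639) and which DESeq2 (adjusted p = 0.0110) and limma-voom (adjusted p = 0.0270) called. In edgeR fits that left out 1 library, the adjusted p was 0.0426 without transgenic replicate 27 and 0.0523 to 0.204 without any other.

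LXR alpha acts beside LXR beta, the product of Nr1h2, which most cells make. Nr1h2 stood at 95.1, 96.2, 74.7 and 79.4 CPM in transgenic libraries, 126, 121 and 112 CPM in parabiotic libraries and 87.3, 84.0 and 89.6 CPM in microglia libraries. Per kb of exon, Nr1h3 reached 0.155 to 0.228 of the Nr1h2 level in transgenic libraries, 0.229 to 0.324 in parabiotic libraries and 0.0177 to 0.0462 in microglia libraries. LXR beta RNA thus exceeded LXR alpha RNA in every library, by far the most in microglia. The Nr1h2 rise in parabiotic cells over microglia was 0.46 ± 0.15 on the log2 scale (adjusted p = 0.0320), and the call was lost without any single parabiotic or microglia library (adjusted p up to 0.144).

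Counts of the lists below are to be read beside the shares of all genes called. Because the lists were drawn up with results of these data in view, their counts and medians describe them and test no excess. In transgenic cells over microglia these were 8.88% higher and 4.79% lower. For parabiotic cells over microglia they were 17.4% and 17.9%, and for transgenic over parabiotic cells 7.63% and 2.42%. Of 18 other nuclear receptors, partners and cofactors, 15 were tested. In transgenic cells over microglia edgeR called 1 lower, the retinoid receptor partner Rxrb at -0.56 ± 0.16 (adjusted p = 0.0410, lost in 7 of 10 fits that each left out a library), and 0 higher, a count that was also 0 at an unadjusted p under 0.05 and with DESeq2 and limma-voom. Parabiotic cells over microglia had 2 called higher, Srebf2 and Nr1h2, and 2 lower, Rxrg and Ppard. Srebf2, the sterol-responsive activator of cholesterol synthesis, stood at 1.27 ± 0.34 (adjusted p = 0.0130, up to 0.0576 without parabiotic replicate 3 or microglia replicate 40), and Ppard, the gene of PPAR delta, at -0.78 ± 0.28 (adjusted p = 0.0475, lost in 8 of 10 such fits). Rxrg, a retinoid receptor partner, stood at 1.10 to 4.56 CPM in transgenic libraries, 0 counts in every parabiotic library and 5.63 to 7.06 CPM in microglia libraries. Against a floor of 3 counts over the parabiotic group it was at least 116.5-fold higher in transgenic cells than in parabiotic cells and at least 207.9-fold lower in parabiotic cells than in microglia. The list's median log2 difference was -0.12 in transgenic cells over microglia, 0.000217 in parabiotic cells over microglia and -0.19 in transgenic over parabiotic cells, and both medians with parabiotic cells are the same with Rxrg at its bound.

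Abca1 encodes the membrane transporter that loads cholesterol and phospholipid onto lipid-poor apolipoproteins (ENSMUSG00000015243, chr4:53030787-53159895, minus strand). It was measured at 1024, 944, 560 and 432 CPM in transgenic replicates 23, 24, 26 and 27, 594, 750 and 742 CPM in parabiotic libraries and 1213, 1211 and 1250 CPM in microglia libraries. Microglia libraries lay above every CD11c library and varied least, with a coefficient of variation of 38.96% in transgenic, 12.68% in parabiotic and 1.77% in microglia libraries. In parabiotic cells Abca1 was lower than in microglia by -0.82 ± 0.29 on the log2 scale (adjusted p = 0.0466). That call was lost on leaving out any 1 of parabiotic replicates 3, 11 and 15 or microglia replicates 39, 40 and 41 (adjusted p up to 0.155). The transgenic difference from microglia was -0.73 ± 0.27 (adjusted p = 0.0884, and 0.0401 without transgenic replicate 23).

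Abca1 was higher in transgenic replicates 23 and 24 than in replicates 26 and 27, so the group's mean depends on which are used. With replicates 23 and 24 alone, Abca1 was 0.49 higher on the log2 scale in transgenic than in parabiotic cells (adjusted p = 0.0223), against 0.09 ± 0.27 with all 4 (adjusted p = 0.888). Over microglia it then stood at -0.32 (adjusted p = 0.137). Leaving out single libraries gave transgenic over parabiotic values from -0.11 to 0.28.

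Abcg1 encodes the half-transporter that exports cholesterol to formed lipoprotein particles (ENSMUSG00000024030, chr17:31057675-31117988, plus strand). It stood at 216, 217, 223 and 163 CPM in transgenic libraries, 182, 256 and 263 CPM in parabiotic libraries and 225, 181 and 225 CPM in microglia libraries. The groups overlap throughout. Log2 differences were -0.04 ± 0.18 in transgenic cells over microglia (adjusted p = 0.906), 0.15 ± 0.19 in parabiotic cells over microglia (adjusted p = 0.573) and -0.19 ± 0.18 in transgenic over parabiotic cells (adjusted p = 0.586). Per kb of exon, Abcg1 reached 0.30 to 0.567 of the Abca1 level in transgenic, 0.434 to 0.503 in parabiotic and 0.212 to 0.264 in microglia libraries, without overlap between CD11c and microglia libraries.

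Mylip encodes IDOL, the ubiquitin ligase that marks the LDL receptor for breakdown and an LXR target (ENSMUSG00000038175, chr13:45389742-45412022, plus strand). Its level was 163, 168, 212 and 193 CPM in transgenic libraries, 112, 131 and 159 CPM in parabiotic libraries and 241, 260 and 278 CPM in microglia libraries. The groups were ordered without overlap, parabiotic cells lowest and microglia highest. Parabiotic cells fell by 0.96 ± 0.17 on the log2 scale from microglia (adjusted p = 0.00141). The transgenic values were -0.50 ± 0.16 over microglia (adjusted p = 0.0596) and 0.46 ± 0.16 over parabiotic cells (adjusted p = 0.102). The first was called without transgenic replicate 26 (adjusted p = 0.0374) and with replicates 23 and 24 alone (-0.65, adjusted p = 0.0125).

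Among 18 further LXR target genes, 16 were tested. In transgenic cells over microglia 4 rose and 1 fell, against 8.88% and 4.79% of all genes, with a median of 0.36. For parabiotic cells over microglia 5 rose and 1 fell, against 17.4% and 17.9% of all genes, with a median of 0.03. Pltp, the phospholipid transfer protein gene, was measured at 204, 182, 132 and 280 CPM in transgenic libraries, 449, 591 and 562 CPM in parabiotic libraries and 16.7, 28.8 and 21.4 CPM in microglia libraries. It rose by 3.16 ± 0.29 in transgenic cells (adjusted p = 0.000119) and by 4.58 ± 0.32 in parabiotic cells (adjusted p = 4.25e-06), and was lower in transgenic than in parabiotic cells, at -1.42 ± 0.25 (adjusted p = 0.00458). Smpdl3a, the gene of a secreted phosphodiesterase that LXR induces, rose by 2.70 and 3.60 in transgenic and parabiotic cells over microglia.

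Apoe, the main apolipoprotein that accepts cholesterol in the brain, averaged 21341, 33753 and 8272 CPM in transgenic cells, parabiotic cells and microglia. It rose by 1.37 ± 0.29 in transgenic cells (adjusted p = 0.0116, up to 0.0826 where a library was left out) and by 2.03 ± 0.31 in parabiotic cells (adjusted p = 0.000487). Scd1, a desaturase gene, rose by 2.58 ± 0.61 and 4.13 ± 0.66 over microglia, from levels under 1 CPM in each microglia library, and 3 of 10 fits that left out a library lost the transgenic call. Tgm2 rose in parabiotic cells over microglia by 0.97 ± 0.30 (adjusted p = 0.0279, lost in 3 such fits). Mertk, the receptor kinase for engulfing dying cells, went the other way. It fell by 1.05 ± 0.15 in transgenic cells (adjusted p = 0.00151) and fell by 1.63 ± 0.17 in parabiotic cells (adjusted p = 3.87e-05) relative to microglia. Between the CD11c groups 1 of the 16 was called higher in transgenic cells, Mertk (0.59, adjusted p = 0.0361, lost in 7 of 10 fits), and 1 lower, Pltp.

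Of 16 genes listed as PPAR gamma targets, which include genes that answer to other PPARs as well, 15 were tested. This list too was chosen with results of these data in view, so its counts, with any tool, test no excess of such targets. 8 rose in transgenic cells over microglia, with a list median of 0.99, and 0 fell, against 8.88% and 4.79% of all genes. The count of 0 was also 0 at an unadjusted p under 0.05 and with DESeq2 and limma-voom. Of the same 15, 9 rose and 1 fell in parabiotic cells over microglia, against 17.4% and 17.9% of all genes, with a median of 1.25. Fabp5, a fatty acid carrier gene, averaged 183, 426 and 21.8 CPM in transgenic cells, parabiotic cells and microglia, and rose by 3.07 ± 0.59 and 4.29 ± 0.64 over microglia (adjusted p = 0.00738 and 0.000431). Fabp4, its relative and a textbook PPAR gamma target, rose by 5.91 ± 1.07 in transgenic cells (adjusted p = 0.00521), with 2.04 and 2.45 CPM in replicates 23 and 24 and 7.79 and 27.4 CPM in replicates 26 and 27. In parabiotic cells Fabp4 averaged 13.3 CPM and rose by 6.33 ± 1.10 over microglia (adjusted p = 0.00113). In microglia Fabp4 averaged 0.164 CPM. Transgenic over parabiotic cells stood at -0.43 for Fabp4, which was not called (adjusted p = 0.797). The lipid droplet coat gene Plin2 rose by 1.80 in transgenic and 2.40 in parabiotic cells over microglia.

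The list also holds genes of fatty acid oxidation. Acaa2, a thiolase of mitochondrial fatty acid oxidation, rose by 1.28 ± 0.18 in transgenic cells (adjusted p = 0.00132) and by 1.70 ± 0.19 in parabiotic cells (adjusted p = 7.22e-05). Cpt1a, the gate enzyme for fatty acid entry into mitochondria, rose by 0.75 and 1.25. In transgenic over parabiotic cells 1 gene of the 15 was higher and 1 lower. Olr1, a receptor for oxidised LDL, stood at 34.6 to 62.6 CPM in transgenic libraries, 10.1 to 14.2 CPM in parabiotic libraries and 22.9 to 48.7 CPM in microglia libraries. It was higher in transgenic than in parabiotic cells by 2.01 ± 0.30 (adjusted p = 0.00173) and lower in parabiotic cells than in microglia by -1.73 ± 0.31 (adjusted p = 0.00146). Cpt1a was the gene called lower, at -0.51 (adjusted p = 0.0453, lost in 8 of 10 fits that left out a library).

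Of 16 other lipid transporters and acceptors, which share Pltp and Apoe with the LXR list, 13 were tested. Those 2 were the genes called higher in transgenic cells over microglia, and Abcb4 was called lower, at -0.94 ± 0.25 (adjusted p = 0.0318, lost in 6 of 10 fits). Called higher in parabiotic cells over microglia were 3, Pltp, Apoe and the transporter gene Abcc1 (0.77, adjusted p = 0.0278, lost in 3 fits), and another 3 were called lower. The shares of all genes were 8.88% higher and 4.79% lower in transgenic cells and 17.4% and 17.9% in parabiotic cells. Abca9 averaged 144, 54.3 and 414 CPM in transgenic cells, parabiotic cells and microglia and fell by 2.93 ± 0.57 in parabiotic cells (adjusted p = 0.00233). Abcb4, a phospholipid exporter gene, fell there by 2.09 ± 0.28 (adjusted p = 0.000227), and Apob, the apolipoprotein gene of LDL, fell by 5.51 ± 0.75 (adjusted p = 0.000235). Apob was low, with averages of 2.71, 0.132 and 6.10 CPM in transgenic cells, parabiotic cells and microglia. Abcb4 and Apob were higher in transgenic than in parabiotic cells, by 1.14 and 4.34, and Pltp was lower. The list's median was -0.07, -0.33 and 0.29 in the 3 comparisons.

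Lipa encodes lysosomal acid lipase, which frees cholesterol from the esters of engulfed lipoproteins (ENSMUSG00000024781, chr19:34492318-34527474, minus strand). It was measured at 650, 685, 799 and 603 CPM in transgenic libraries, 1223, 1076 and 1188 CPM in parabiotic libraries and 157, 239 and 324 CPM in microglia libraries. The 3 groups are separate, and microglia replicate 41 held 2.07 times the level of replicate 39. Lipa rose by 1.51 ± 0.23 in transgenic cells (adjusted p = 0.00188) and by 2.28 ± 0.24 in parabiotic cells (adjusted p = 4.89e-05) over microglia. Transgenic cells were lower than parabiotic cells by -0.76 ± 0.22 (adjusted p = 0.0471). This call was lost without any 1 of parabiotic replicates 3, 11 and 15, transgenic replicates 23, 24 and 27 or microglia replicate 40, with adjusted p up to 0.155. It was also lost with upper quartile scaling (adjusted p = 0.0623), with a stricter low-count filter (0.0521) and with a term for transgenic replicates 26 and 27 (0.0831).

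Npc1 encodes the membrane protein that moves free cholesterol out of the lysosome (ENSMUSG00000024413, chr18:12189692-12236400, minus strand). Its level was 147, 150, 130 and 175 CPM in transgenic libraries, 166, 191 and 156 CPM in parabiotic libraries and 96.6, 109 and 107 CPM in microglia libraries. Microglia libraries were lowest, and the CD11c groups overlapped. Npc1 rose by 0.71 ± 0.15 in parabiotic cells over microglia (adjusted p = 0.00433). In transgenic cells the rise was 0.53 ± 0.15 (adjusted p = 0.0356), and the call was lost without any 1 of the parabiotic or microglia libraries (adjusted p up to 0.158). It was also lost without the low-count filter (adjusted p = 0.102), with only the 2 groups compared (0.0808) and with a term for transgenic replicates 26 and 27 (0.0713). Npc1 shares 511 exon bases with Rmc1 and 90 with Gm15956, both on the opposite strand, and nothing in the sources used here says whether counting used strand.

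Npc2 encodes the soluble lysosomal protein that hands cholesterol to NPC1 (ENSMUSG00000021242, chr12:84754562-84773152, minus strand). It was measured at 642, 614, 854 and 679 CPM in transgenic libraries, 656, 721 and 766 CPM in parabiotic libraries and 595, 621 and 771 CPM in microglia libraries. All 3 groups overlapped, with log2 differences of 0.07 ± 0.16 in transgenic cells over microglia, 0.11 ± 0.17 in parabiotic cells over microglia and -0.04 ± 0.16 in transgenic over parabiotic cells (adjusted p = 0.785, 0.664 and 0.932). Per kb of exon Npc2 averaged 128, 131 and 122 in these groups and was among the 2 highest members in each. Npc1 reached 0.0732 to 0.124 of the Npc2 level per kb in transgenic libraries, 0.0981 to 0.127 in parabiotic libraries and 0.0668 to 0.0844 in microglia libraries.

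All 20 other genes of lysosomal and intracellular sterol transport were tested. 3 rose and 3 fell in transgenic cells over microglia, and 6 rose and 4 fell in parabiotic cells, with medians of 0.21 and 0.22. The shares of all genes were 8.88% higher and 4.79% lower in transgenic cells and 17.4% and 17.9% in parabiotic cells. The 3 genes of the GRAMD1 (Aster) sterol carriers divided, with Gramd1b and Gramd1c higher and Gramd1a lower in both CD11c groups. Gramd1b rose by 0.84 and 1.35 and Gramd1c by 2.80 and 3.28 in transgenic and parabiotic cells, while Gramd1a fell by 0.77 and 1.26. The Gramd1c values rest on low levels, with averages of 1.68, 2.34 and 0.237 CPM in transgenic cells, parabiotic cells and microglia. Gramd1a averaged 208, 149 and 356 CPM. Stard5, a cytosolic sterol carrier gene, rose 2.02-fold and 2.83-fold. Stard3, whose protein links late endosomes to the endoplasmic reticulum, fell by 0.84 and 0.70, and Tfe3, a regulator of lysosome genes, fell by 0.64 and 0.73. Tfeb, another such regulator, went the other way in parabiotic cells, at 0.74 over microglia (adjusted p = 0.0333). In transgenic cells Tfeb stood at 0.18 and was not called (adjusted p = 0.609). In transgenic cells the calls of Stard5, Gramd1b and Gramd1a were each lost in 2 of 10 fits that left out a library and that of Tfe3 in 5, and the parabiotic call of Tfe3 was lost in 2. Smpd1, the acid sphingomyelinase gene, fell by 0.99 ± 0.15 in parabiotic cells over microglia (adjusted p = 0.000444). It was the 1 gene of the list called higher in transgenic than in parabiotic cells (0.57, adjusted p = 0.0259, lost in 5 fits). 0 were called lower there by edgeR and limma-voom and 1 by DESeq2, with 4 at an unadjusted p under 0.05 in edgeR.

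Soat1 encodes the acyltransferase ACAT1, which turns free cholesterol into esters for lipid droplets (ENSMUSG00000026600, chr1:156424525-156474331, minus strand). It stood at 457, 488, 451 and 401 CPM in transgenic libraries, 667, 600 and 619 CPM in parabiotic libraries and 162, 230 and 303 CPM in microglia libraries. The groups are separate, in the same order as for Lipa. Soat1 rose by 0.96 ± 0.20 in transgenic cells (adjusted p = 0.0101) and by 1.44 ± 0.21 in parabiotic cells (adjusted p = 0.000352) over microglia. The transgenic call was lost without microglia replicate 40 (adjusted p = 0.0659). Transgenic cells stood at -0.48 ± 0.19 relative to parabiotic cells (adjusted p = 0.145).

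Set against Abca1 within each library and per kb of exon, Soat1 reached 0.473, 0.547, 0.852 and 0.982 of the Abca1 level in transgenic libraries, 1.19, 0.847 and 0.884 in parabiotic libraries and 0.142, 0.200 and 0.257 in microglia libraries. The ratio was higher in every CD11c library than in every microglia library. Transgenic replicates 26 and 27 lay in the range of parabiotic libraries and replicates 23 and 24 below it, and Soat1 exceeded Abca1 in parabiotic replicate 3 alone. No test was run on these ratios.

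**Figure D3:**
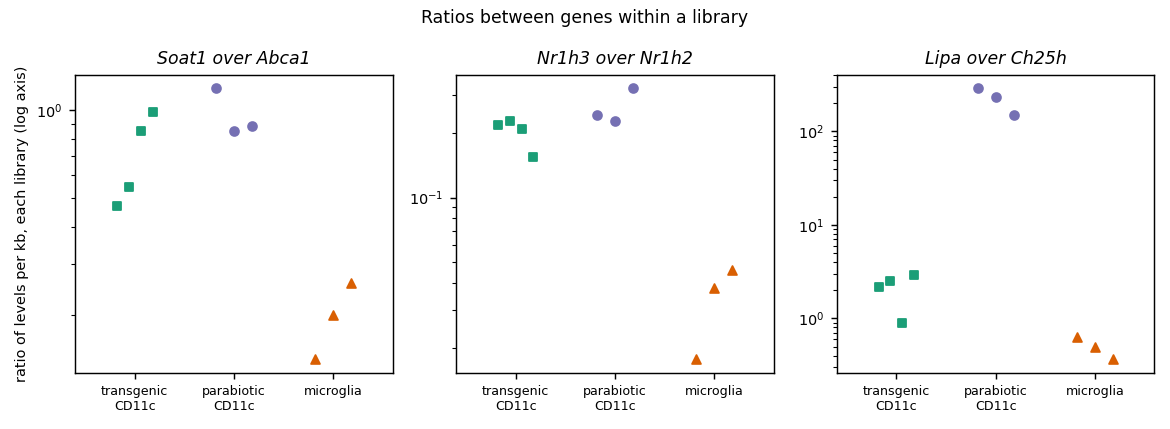
Ratio of levels per kb of exon within each library, on log axes, for Soat1 over Abca1, Nr1h3 over Nr1h2 and Lipa over Ch25h, with 1 point per library of transgenic CD11c, parabiotic CD11c and microglia from left to right. For Lipa over Ch25h the transgenic libraries lie at 0.901 to 2.94, the parabiotic libraries at 151 to 290 and the microglia libraries at 0.367 to 0.640.

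Ch25h encodes cholesterol 25-hydroxylase, which makes 25-hydroxycholesterol, an oxysterol with antiviral action that LXR can sense (ENSMUSG00000050370, chr19:34473778-34475164, minus strand). It was measured at 61.9, 55.3, 181 and 41.9 CPM in transgenic libraries, 0.862, 0.943 and 1.61 CPM in parabiotic libraries and 49.996, 97.7 and 181 CPM in microglia libraries. Behind these values lie 1722 to 7171 counts in transgenic libraries, 30, 31 and 53 counts in parabiotic libraries and 1770 to 5704 counts in microglia libraries. Parabiotic libraries were far below all others, while transgenic and microglia libraries overlapped. Ch25h was 6.22 ± 0.71 higher on the log2 scale in transgenic than in parabiotic cells (adjusted p = 0.000338), a fitted ratio of 74.7. In parabiotic cells it was -6.58 ± 0.73 relative to microglia (adjusted p = 6.10e-05), and in transgenic cells -0.36 ± 0.52 (adjusted p = 0.659). That last value changed sign, to 0.20, without microglia replicate 41.

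Ch25h is the member that varied most within groups, by 4.33 times from the lowest to the highest transgenic library and by 3.61 times among microglia. With transgenic replicates 23 and 24 alone the difference from parabiotic cells was 5.67 (adjusted p = 0.000144). The microglia marker sum, given above, was lowest in parabiotic libraries, as Ch25h was. Unlike Ch25h, it did not overlap between transgenic and microglia libraries. The same held for astrocyte markers, which summed to 24.1 to 56.2 CPM in transgenic libraries, 3.07 to 6.11 CPM in parabiotic libraries and 107 to 179 CPM in microglia libraries. Most of the astrocyte sum in transgenic and microglia libraries was Slc1a3, at 12.69 to 45.89, 0 to 2.034 and 88.95 to 150.9 CPM in the same groups. Gfap stood at 4.94 to 6.34, 1.465 to 1.67 and 9.88 to 23.2 CPM. Within transgenic libraries, replicate 26, highest in Ch25h, also had the highest microglia marker sum (18310 CPM), and replicate 27, lowest in Ch25h, the lowest (6340 CPM). The part of these markers in the result was not tested.

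The single-exon gene Ch25h lies 17.2 kb from Lipa on chromosome 19, both on the minus strand, with no gene wholly between them. The neighbours moved, in parabiotic cells over microglia, in opposite directions, Lipa higher and Ch25h lower. Ch25h shares 159 exon bases with Gm26902, a noncoding transcript on the opposite strand that reaches into the gap.

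Of 14 other genes of sterol esterification, hydrolysis and oxysterols, 12 were tested. In transgenic cells over microglia 1 rose and 1 fell, with a median of -0.02, and in parabiotic cells 3 rose and 2 fell, with a median of 0.65. The shares of all genes were 8.88% higher and 4.79% lower in transgenic cells and 17.4% and 17.9% in parabiotic cells. Nceh1, the gene of a neutral cholesterol ester hydrolase, stood at 239 to 310 CPM in transgenic libraries, 423 to 451 CPM in parabiotic libraries and 62.9 to 126 CPM in microglia libraries. It rose by 1.55 ± 0.22 (adjusted p = 0.00128) and by 2.25 ± 0.23 (adjusted p = 4.15e-05) over microglia in transgenic and parabiotic cells. Mgll, the monoglyceride lipase gene, fell by 1.84 ± 0.41 in transgenic cells (adjusted p = 0.0149, lost in 2 of 10 fits) and fell by 7.15 ± 0.62 in parabiotic cells (adjusted p = 1.46e-05), where it averaged 0.151 CPM.

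Cyp7b1, a gene of oxysterol breakdown, rose in parabiotic cells over microglia by 4.26 ± 1.02 (adjusted p = 0.00748), though at an average of 1.80 CPM. Cyp46a1, the gene of brain cholesterol 24-hydroxylase, averaged 0.454 CPM in transgenic cells, had 0 counts in parabiotic libraries and averaged 1.37 CPM in microglia. Against 3 counts over the parabiotic group it was at least 15.2-fold higher in transgenic cells than in parabiotic cells and at least 46.1-fold lower in parabiotic cells than in microglia. Between the CD11c groups Mgll and Cyp46a1 were called higher in transgenic cells, Mgll by 5.31 ± 0.59 (adjusted p = 0.000303). 0 were called lower there by edgeR, 3 by DESeq2 and 1 by limma-voom, with 6 at an unadjusted p under 0.05 in edgeR and a list median of -0.55. Both medians with parabiotic cells are the same with Cyp46a1 at its bound.

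Of 16 uptake receptors for lipoproteins and modified lipid, 14 were tested. In transgenic cells over microglia 5 rose, with a median of 0.23. 0 fell, also at an unadjusted p under 0.05 and with DESeq2 and limma-voom. In parabiotic cells 4 rose and 2 fell, with a median of 0.26. The shares of all genes were 8.88% higher and 4.79% lower in transgenic cells and 17.4% and 17.9% in parabiotic cells. Cd36, the scavenger receptor and fatty acid translocase gene, stood at 50.8, 77.2, 131 and 179 CPM in transgenic libraries, 157, 161 and 119 CPM in parabiotic libraries and 15.9, 34.8 and 24.5 CPM in microglia libraries. It rose by 2.13 ± 0.41 (adjusted p = 0.00774) and by 2.54 ± 0.44 (adjusted p = 0.00108) over microglia. Lrp8, an apolipoprotein E receptor gene, rose by 2.32 and 2.90, Stab2 by 2.87 and 3.84 and Cxcl16 by 0.57 and 1.06 in transgenic and parabiotic cells.

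In transgenic cells the calls of Lrp8, Stab2 and Cxcl16 were lost in 3, 9 and 8 of 10 fits that left out a library. Msr1, the class A scavenger receptor gene, rose in transgenic cells by 1.55 ± 0.41 (adjusted p = 0.0320, lost in 7 fits), with 228 and 221 CPM in replicates 23 and 24 and 497 and 719 CPM in replicates 26 and 27. Olr1 and Marco were the receptors called lower in parabiotic cells. Marco, a scavenger receptor gene, was at 0.0862 CPM in 1 parabiotic library and at 0 in the other 2, and its call was lost in 5 of 10 fits. In transgenic over parabiotic cells 1 receptor, Olr1, was called higher. 0 were called lower by edgeR and limma-voom and 1 by DESeq2, with 1 at an unadjusted p under 0.05 in edgeR.

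**Figure D4:**
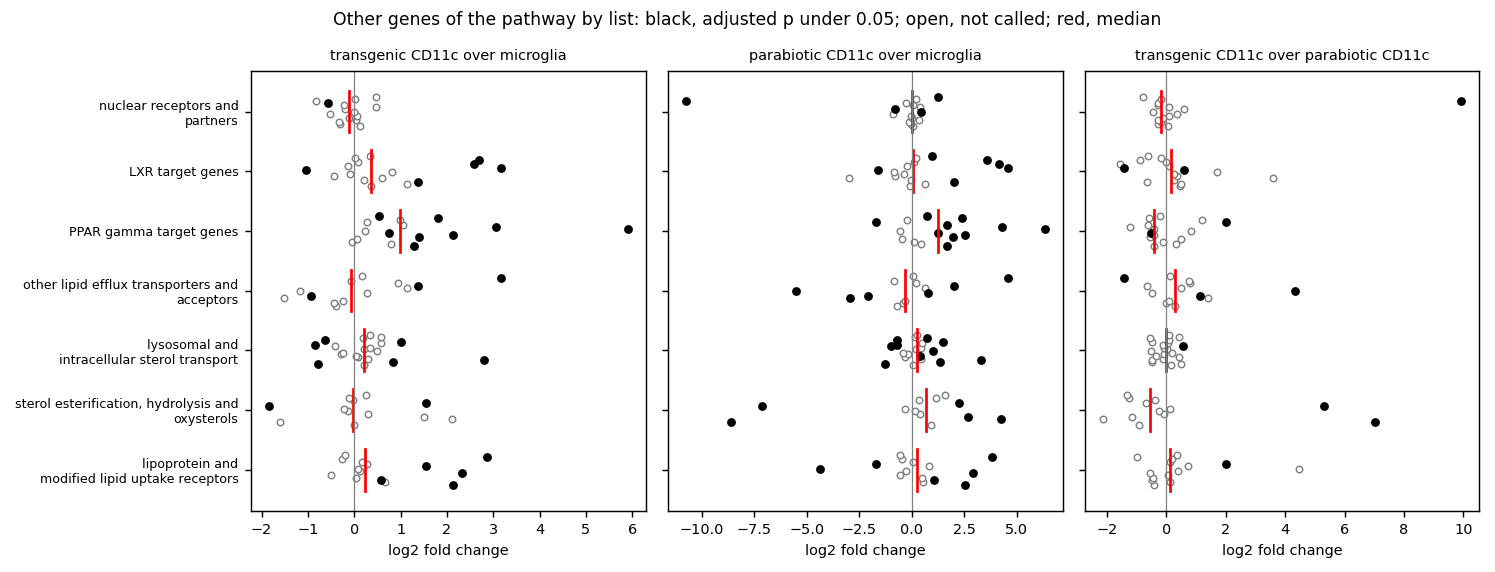
Log2 fold changes of the tested genes of each list (points, filled at adjusted p under 0.05) with the list's median (red bar), for transgenic CD11c over microglia, parabiotic CD11c over microglia and transgenic CD11c over parabiotic CD11c. The PPAR gamma target list has the highest median in both comparisons with microglia, 0.99 and 1.25, and the far points of Rxrg and Cyp46a1 are fitted values against a group at 0, whose size depends on the prior count.

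Over all 7 lists, 98 of 110 genes were tested. 20 rose and 7 fell in transgenic cells over microglia, against 8.88% and 4.79% of all genes. The parabiotic counts over microglia were 29 and 14, against 17.4% and 17.9%. Between transgenic and parabiotic cells 8 were higher and 2 lower in transgenic cells, against 7.63% and 2.42%. The lists were drawn up with results of these data in view. Medians over the 98 genes together, 0.17, 0.15 and -0.01, lie near those of all genes. Single lists lay further off, such as the PPAR gamma targets at 0.99 and 1.25 over microglia. The sterol esterification list stood at -0.55 in transgenic over parabiotic cells.

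Within microglia, replicate 39 had the lowest level of Nr1h3, Pparg, Lipa, Soat1 and Ch25h, and replicate 41 the highest of Nr1h3, Lipa, Soat1 and Ch25h. Nr1h3, Lipa and Ch25h differed by 2.68, 2.07 and 3.61 times between the lowest and highest microglia libraries, and Abca1 by 1.03 times. Within transgenic libraries, replicate 27 was lowest for Nr1h3, Pparg, Abca1, Abcg1, Lipa, Soat1 and Ch25h, and highest for Npc1. Parabiotic libraries had the smallest spread of the 3 groups for Nr1h3, Pparg, Lipa, Npc2, Soat1 and Ch25h, with highest to lowest ratios of 1.11 for Soat1 to 1.87 for Ch25h.

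**Figure D5:**
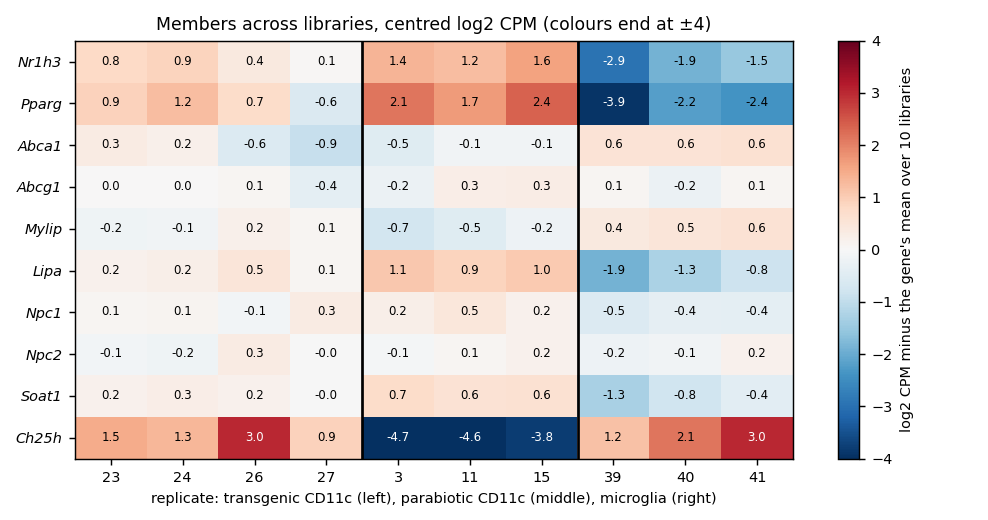
Log2 CPM of each member minus the gene's mean over the 10 libraries, for transgenic CD11c replicates, parabiotic CD11c replicates and microglia replicates from left to right, with colours ending at ±4. Nr1h3, Pparg, Lipa and Soat1 are below their mean in all 3 microglia libraries, and Ch25h is below its mean in the 3 parabiotic libraries alone.

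In CPM per kb of exon, Npc2 was the highest member in transgenic cells (128 ± 19.8, SD, n = 4) and microglia (122 ± 17.5, SD, n = 3), and Lipa in parabiotic cells (171 ± 11.3, SD, n = 3). Lipa came next in transgenic cells (101 ± 12.4), with libraries that overlapped those of Npc2, while in microglia it was the fifth (35.4 ± 12.4). Abca1 came next in microglia (118 ± 2.09), within the spread of Npc2, and next after these in transgenic (71.4 ± 27.8) and parabiotic cells (67.1 ± 8.51), where it overlapped Soat1 (64.2 ± 3.497). The receptors stood near the bottom in all groups, Nr1h3 at 5.27 ± 1.35, 9.38 ± 1.30 and 0.882 ± 0.391 per kb and Pparg at 1.66 ± 0.718, 4.27 ± 0.941 and 0.159 ± 0.0811 per kb in transgenic cells, parabiotic cells and microglia.

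The genes most like each member over the 10 libraries were found by the root mean square difference of centred log2 CPM among genes with a mean of at least 20 CPM. For Nr1h3 they were Cd300lb (0.228) and Vav3 (0.251), where the member's own SD over libraries was 1.47. Lipa was closest to Rftn1 (0.0793, own SD 0.961) and then to Nceh1 (0.178), the ester hydrolase gene above. Ch25h was closest to Serpine2 (0.299, own SD 2.90), which averaged 1011, 20.2 and 1187 CPM in transgenic cells, parabiotic cells and microglia, and to Tspan7 (0.396). The nearest to Pparg were Tmem51 and Kcnn4, to Abca1 Sipa1 and Rnf31, to Soat1 Ssx2ip and Fyn, to Mylip Rin2 and Lcp2, and to Npc1 Fig4 and Wbp11. Abcg1 and Npc2, which varied little, lay nearest to Osgep and Tpgs1 and to Bscl2 and Ipo5. All 10 libraries fall into the 3 groups, so these patterns share the group means, and likeness is given as a description.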

How the data were processed

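The deposited table gives 28585 Ensembl genes as raw counts in 10 libraries, made from SMART-Seq v4 cDNA per the labels' protocols. FastQC 0.11.5, STAR 2.5.3a, DESeq2 (no version) and the build GRCm38 are named in the submitters' processing notes. How reads were counted (program, annotation, use of strand): not given in the sources used here. Gene symbols, positions and exon lengths came from GENCODE M21, which matched 28492 identifiers, and promoters from RefSeq.

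Libraries were grouped by their titles. A low-count filter (filterByExpr, grouped) removed 13434 genes, TMM scaled the libraries, and edgeR 4.0.16 in R 4.3.3 gave robust quasi-likelihood F tests with one mean per group, with Benjamini-Hochberg adjustment over 15151 genes and a threshold of 0.05. The script was tested on simulated data. The labels do not say that libraries come from separate animals, so p-values measure the spread between libraries. Replicates differed beyond counting noise (chi-square per degree of freedom 18.8 to 342), and the biological coefficient of variation was 0.317.

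The 10 members and the 7 lists were chosen with earlier results of these data known. All members are named. Of each list, up to 3 called genes per direction with the lowest p are named, and every gene of a count of 5 or fewer, except 1 gene that is not reported here. Plin2, Tfeb, the Cpt1a values over microglia in transgenic cells and the Fabp4 values with parabiotic cells were added after their values were seen. Levels per kb divide CPM by the summed exon length. Genes at 0 in a group were set against a floor of 3 counts. Alternatives were RLE and upper quartile scaling, DESeq2 1.42.0, limma-voom (limma 3.58.1), no filter or a stricter one (5 CPM or more in 3 or more libraries), the 2 groups of a comparison alone, a term for transgenic replicates 26 and 27, non-robust dispersion and each library left out. A fit with only transgenic replicates 23 and 24 in their group was added after the data were seen.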

Additional observations from a re-analysis of the deposited data

Results flagged for a closer look

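Among 48 genes checked in the 4 transgenic libraries, 4 had a library that stood apart from the other 3 by more than Dixon's 95% criterion allows, where chance flags about 1 in 20. Abcg1 was at 163.11 CPM in transgenic replicate 27, below 216 to 223 CPM in the other 3. Ch25h was at 181.44 CPM in transgenic replicate 26, above 41.9 to 61.9 CPM in the others and close to microglia replicate 41 at 181 CPM. Marco was at 2.1677 CPM in transgenic replicate 27, above 0.202 to 0.307 CPM in the others. Rxrg was at 1.096 CPM in transgenic replicate 27, below 3.99 to 4.56 CPM in the others. 3 of the 4 values belong to replicate 27, the library with the lowest microglia marker sum of its group, and the part of the cell mixture in them was not tested.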

How the results depend on the processing

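Over 600 recomputed fold changes of members (20 alternatives, each for 10 members and 3 comparisons), 543 kept direction and side of the threshold, 26 lost a call, 14 gained one and 17 changed sign, 0 of them for a called difference. Members higher in parabiotic cells over microglia numbered 5 in every alternative. No paired analysis was possible because the groups share no replicate number.

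Members called lower in transgenic cells over microglia numbered 0, but 1 with RLE scaling, with the stricter filter, with the term for transgenic replicates 26 and 27 and with replicates 23 and 24 alone, and 2 with DESeq2. Members called lower in transgenic over parabiotic cells numbered 1, but 0 with upper quartile scaling, the stricter filter and the term for replicates 26 and 27, and 3 with DESeq2 and limma-voom. Members called higher there numbered 2 with replicates 23 and 24 alone, against 1.

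Genes called in transgenic cells over microglia numbered 2070, against 3437 with DESeq2, 1229 with only the 2 groups compared and 1303 with the term for replicates 26 and 27. In transgenic over parabiotic cells they numbered 1523, against 2419 with DESeq2, 999 with only the 2 groups and 3482 with replicates 23 and 24 alone, where parabiotic over microglia had 8334 (main 5347). Pathway genes called lower in transgenic cells over microglia numbered 7, against 11 with DESeq2, 4 with only the 2 groups and 2 with the term. Those lower in parabiotic cells over microglia numbered 14, against 25 with only the 2 groups, 22 with the term and 27 with replicates 23 and 24 alone. Those lower in transgenic over parabiotic cells numbered 2, against 1 with upper quartile scaling and without a filter, 10 with DESeq2, 4 with limma-voom, 5 with the term and 17 with replicates 23 and 24 alone, where 15 were higher (main 8). The causes were not tested.

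Where no single library was left out, signs changed for differences near 0. Without microglia replicate 41, Ch25h in transgenic cells over microglia also changed sign, from -0.36 to 0.20. Npc2 in transgenic over parabiotic cells was 0.0064 with upper quartile scaling. In transgenic cells over microglia Abcg1 was 0.0427 and Npc2 -0.0772 with the term, and 0.0374 and -0.0832 with replicates 23 and 24 alone.

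Leaving out each library in turn, genes called ranged over 746 to 2684 in transgenic cells over microglia and 830 to 2510 in transgenic over parabiotic cells. Members higher ranged over 3 to 5 and lower over 0 to 1 in the first, and members lower over 0 to 1 in the second. Pathway genes higher and lower ranged over 9 to 20 and 2 to 8 in the first and over 5 to 11 and 1 to 14 in the second. The lowest counts of the first came without a microglia library. Log2 differences of transgenic cells over microglia ranged from -0.157 to 0.0723 for Abcg1, -0.0618 to 0.190 for Npc2 and -1.08 to 0.20 for Ch25h, and those over parabiotic cells from -0.11 to 0.28 for Abca1 and -0.202 to 0.0209 for Npc2. With 1 to 98 counts behind single values of Pparg, Nr1h3, Mgll and Ch25h in their low groups, counting error adds to the spread there.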
